A study of Homo sapiens with 3 samples.

Results

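Metalloproteinases and their inhibitors were followed in the established melanoma line SK-Mel-28, which is of human origin, in cells that stably expressed a hairpin RNA against melanotransferrin, an iron-binding surface protein. The set holds 35 genes: 14 matrix metalloproteinases (MMPs), 9 ADAMs, 6 ADAMTS proteases, and 6 inhibitors or regulators (TIMP1 to TIMP4, RECK and BSG). Members were chosen by name, as all probe sets whose platform annotation names 1 of these genes, which gave 93 of the 54613 non-control probe sets of the Affymetrix Human Genome U133 Plus 2.0 array. All 35 genes were found, and no member probe set named a second gene. The cells had been stably transfected with the vector pSilencer 3.1-H1 neo, in which an H1 promoter drives a short hairpin RNA. One array held RNA of cells with a scrambled hairpin, and 2 arrays, called siRNA array 1 and siRNA array 2 here, held RNA of cells with a hairpin against melanotransferrin (gene MELTF). Its target is placed at bases 2048 to 2066 of the MELTF mRNA by the sample labels and at 2031 to 2049 by the design text of the series. The labels do not say whether the siRNA arrays came from separate clones or cultures. Errors and p-values reflect how far this pair of arrays differs, and that spread can be purely technical. The error of a single probe set is drawn mostly from this spread in other probe sets of similar mean signal. The scrambled array has no replicate, and both siRNA arrays are compared with that same array.

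MMPs and ADAMTS proteases are zinc enzymes that are made as inactive proenzymes and cut components of the extracellular matrix, some from the cell surface and some after secretion. ADAMs are mostly membrane proteins, and the active ones release the outer parts of receptors, growth factors and adhesion molecules, a process called shedding. TIMPs bind the active site of these enzymes and block it. In melanoma these genes are known for their part in matrix breakdown during invasion.

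Values are probe set signals on a linear scale. The trp controls are probe sets for a bacterial gene, and their highest signal, 97.2, is taken as the level below which a probe set is not clearly above background. Differences are siRNA minus scrambled on the scale log2(signal + 47.4), which understates changes of dim probe sets. The test is limma over all 27306 probe sets whose mean log2 value lay above the median of all probe sets, with Benjamini-Hochberg adjustment over all of them, and a probe set is called at an adjusted p below 0.05. MELTF itself was not called, and its probe sets disagreed. The brightest read 32608 with the scrambled hairpin against 18968 and 18974 with the siRNA (limma adjusted p = 0.0699). The second brightest read 8284 against 10567 and 11199, and a dimmer one 546.4 against 693.7 and 665.7, higher on both siRNA arrays. The remaining one read 915.2 against 699.7 and 283.6, lower on both. These other 3 gave limma adjusted p from 0.318 to 0.640. Median signals were 160.6, 174.3 and 199.5 on the scrambled array, siRNA array 1 and siRNA array 2. Ribosomal RNA control probe sets read a median of 3.76 times the scrambled signal on siRNA array 1 and 1.06 times on siRNA array 2, and the part of this in the results was not tested.

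Of the 35 members, 25 had at least 1 probe set past the filter, with 52 probe sets in all. TIMP2 was the gene with a called probe set, 1 of 52 (1.92%), in the higher direction, against 2.09% of all probe sets tested in either direction and 1.19% in the higher one, so the count is near the background. At an unadjusted p below 0.05 there were 9 of 52 (17.3%), against 20.2% of all probe sets. These 9 belonged to MMP1, MMP2, MMP14 (3 probe sets) and TIMP2, all higher on the siRNA arrays (6 of 52, against 12.4% of all), and to TIMP3 (3 of 52, lower, against 7.77% of all). With each gene represented by its brightest probe set, 11 of 25 members (44%) were higher than scrambled on both siRNA arrays and 8 (32%) were lower on both, against 46.7% and 32.5% of the 12386 genes tested. On the log2(signal + 47.4) scale 0 members differed at least 2-fold in the same direction on both arrays, where 4.19% of all genes were that much higher and 1.94% that much lower. On the signals themselves, an alternative chosen after seeing the data, MMP2 (1 member, 4%) was at least 2-fold higher on both, at 2.04 and 3.30 times scrambled, against 5.2% of all genes, and 0 members were that much lower, against 2.21%. On the shifted scale and on siRNA array 2 alone, MMP1, MMP2, ADAM23 and ADAMTS9 (4) were at least 2-fold higher and ADAMTS10 (1) was lower. On siRNA array 1 alone 0 were higher (MMP2 by its signals) and MMP19 and TIMP3 (2) were lower. The low signals of ADAMTS10 and MMP19 lay below the trp level. Shares of all genes on a single array were not computed, so these counts cannot be set against a background. At 1.5-fold on both arrays, on the same shifted scale, MMP2, MMP14 and MMP16 were higher (12%, against 12.6% of all genes) and TIMP3 was lower (4%, against 6.81%). The median member differed by 0.20, and the median of all genes by 0.097.

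**Figure D1:**
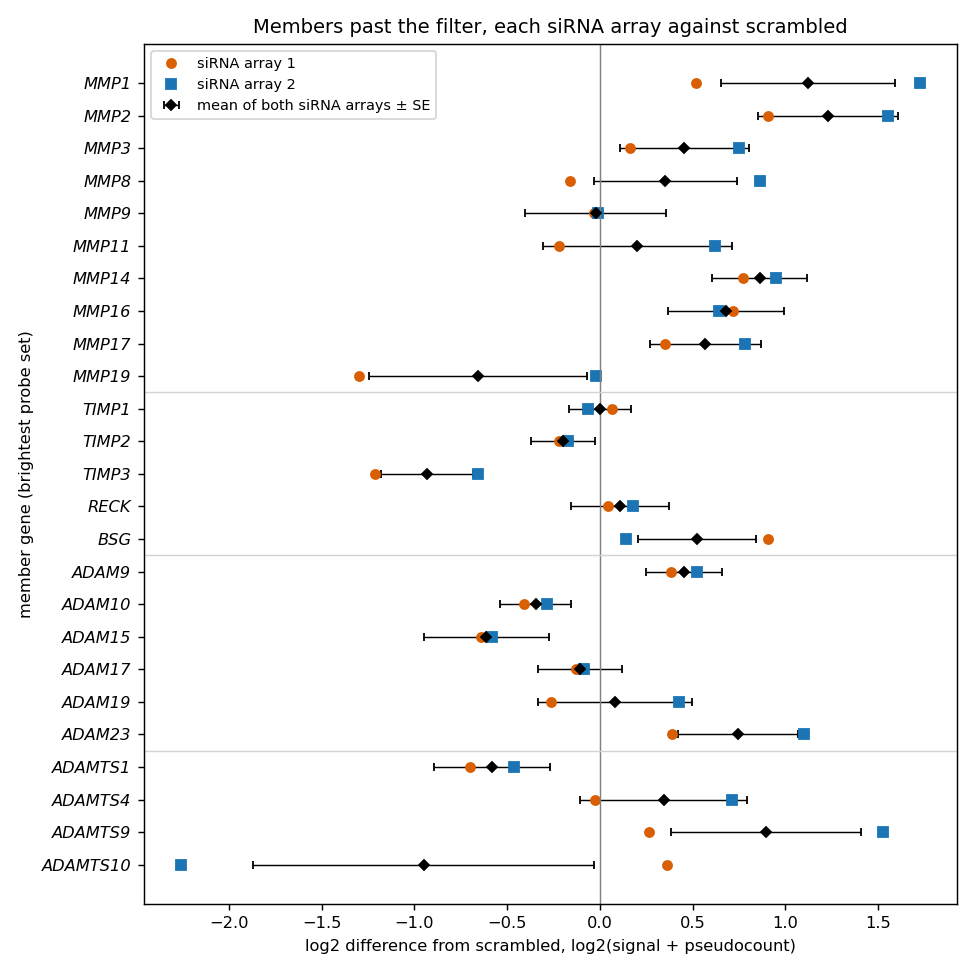
Difference from the scrambled array (x axis, log2(signal + pseudocount)) of the 25 members past the filter, each by its brightest probe set: orange circles are siRNA array 1, blue squares siRNA array 2, black diamonds their mean with the SE of the limma fit, and grey lines separate MMPs, inhibitors and regulators, ADAMs and ADAMTS genes. MMP2, MMP14 and MMP16 lie to the right of 0 on both arrays and TIMP3 to the left, while ADAMTS10 spans from -2.26 to 0.36.

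Among the secreted MMPs, MMP2, a gelatinase, read 250.6 in the scrambled cells against 511.3 and 827.1 in the siRNA cells. Both siRNA values lay above the scrambled value, with a difference of 1.23 ± 0.38 (SE; limma adjusted p = 0.135). A dimmer MMP2 probe set was split, at 212.9 against 69.9 and 313.4, and the remaining one read at most 80.8. MMP1, the interstitial collagenase that cuts fibrillar collagen, read 638.4 against 934 and 2226, so that siRNA array 2 stood well above both other arrays (difference 1.12 ± 0.47, SE; adjusted p = 0.239 by limma). MMP3, a stromelysin that cuts proteoglycans and can activate other MMPs, read 512.5 against 579.9 and 893.3 (0.46 ± 0.35, SE; limma adjusted p = 0.517).

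MMP8, a collagenase best known from neutrophils, had 2 probe sets with the same pattern. They read 6103 and 6043 in the scrambled cells, 5462 and 5775 on siRNA array 1, and 11157 and 9790 on the other siRNA array. In both probe sets only siRNA array 2 stood above scrambled, and limma adjusted p was 0.666 and 0.635. MMP9, the other gelatinase, read 274.5, 267.2 and 272 on the 3 arrays, a range far smaller than the SE of its difference (-0.022 ± 0.38). MMP11, a stromelysin named for its expression in stroma, read 164.8 against 134.7 and 279.4 (limma adjusted p = 0.872). It was the 1 member that passed the filter with a scrambled value below the filter level, which corresponds to a signal of 166. A second MMP11 probe set read at most 39. MMP19, an MMP outside the main subgroups, read 287.7 against 89 and 283.4, so that its negative difference came from siRNA array 1, and its other probe set read at most 43.

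MMP14, MMP16 and MMP17, which are membrane-anchored, passed the filter, and each lay above scrambled on both siRNA arrays by its brightest probe set. MMP14, the surface enzyme that activates the MMP2 proenzyme with the help of TIMP2, had 4 probe sets. The brightest read 1173 against 2035 and 2312, the second 352.3 against 715 and 728.3, and the third 271.2 against 699.3 and 585.1. In these 3 both siRNA arrays lay above scrambled, with differences of 0.86 ± 0.25, 0.94 ± 0.30 and 1.11 ± 0.33 (SE), which did not pass the threshold (limma adjusted p = 0.123, 0.147 and 0.122). The fourth, of the _x_at type whose probes may bind other transcripts too, read 176.9 against 809.1 and 134, a split between the siRNA arrays. MMP16, another transmembrane MMP, had a brightest probe set at 369.1 against 638.5 and 602.2 (0.68 ± 0.31, SE; limma adjusted p = 0.279). Its other 2 probe sets past the filter also lay above scrambled on both arrays, with differences of 0.57 and 0.56. MMP17, which is held by a lipid anchor, read 844 against 1090 and 1488 (0.57 ± 0.30, SE; limma adjusted p = 0.345).

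As a group, 6 of the 10 MMPs past the filter were higher than scrambled on both siRNA arrays and 2 were lower on both, beside 46.7% and 32.5% of all genes. Their median difference was 0.51 (siRNA array 1, 0.26; siRNA array 2, 0.77), and that of all genes 0.097. With arrays centred on their medians these were 0.34 and -0.073, and with quantile normalization, under which the count of 6 became 5, they were 0.42 and 0.021. With 10 genes this is a description and not a result particular to the MMPs.

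**Figure D2:**
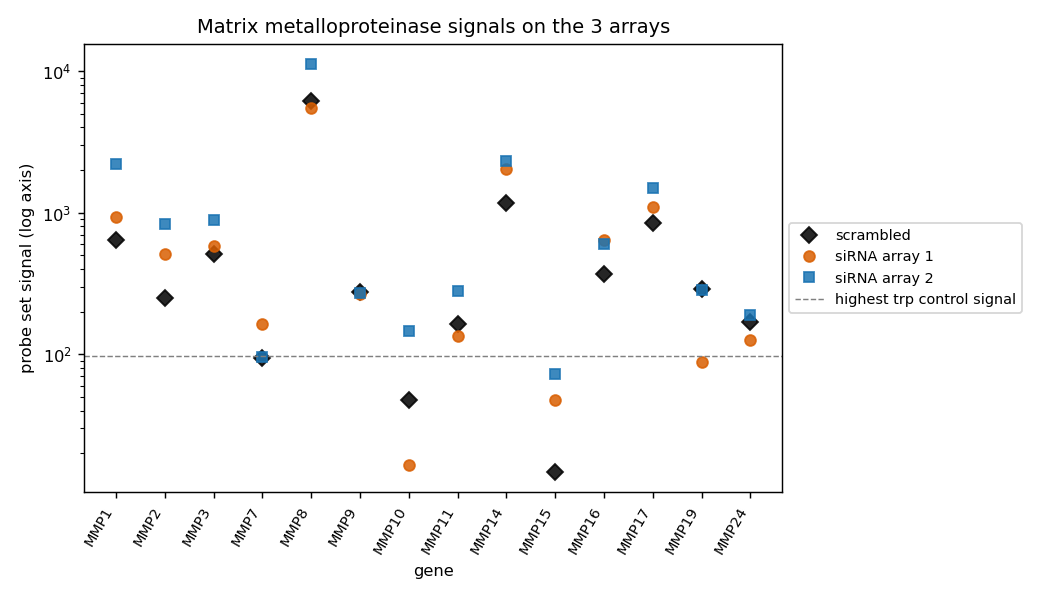
Signals (y axis, log scale) of the 14 MMP genes on the scrambled array (black diamonds), siRNA array 1 (orange circles) and siRNA array 2 (blue squares), each by its brightest probe set, with the highest trp control signal (97.2) as a dashed line. MMP1, MMP2, MMP3, MMP14, MMP16 and MMP17 have both siRNA signals above the black diamond, and MMP15 lies below the dashed line on all 3 arrays.

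MMP1, MMP3, MMP7, MMP8 and MMP10 lie in a cluster on chromosome 11, in the order MMP7, MMP20, MMP27, MMP8, MMP10, MMP1 and MMP3. Of the members there, MMP8, MMP10, MMP1 and MMP3 were highest on siRNA array 2, and MMP7 on siRNA array 1. MMP10, a stromelysin, read 48 against 16.6 and 147, above the trp level on siRNA array 2 only. MMP7, the small enzyme matrilysin, read 94.5 against 162.8 and 95.7. RefSeq (GRCh38.p14) promoter sequences matched 22 of the 35 members. The 250 bases before the start site are shown for MMP8 and MMP10, as neighbours of which one was well above background on every array and the other was not, and for MMP14, the MMP with the most probe sets higher on both siRNA arrays among those matched. Capitals mark a TATA box (TATAAA), an AP-1 site (TGANTCA) or a GC box (GGGCGG), searched on both strands, and the motifs do not overlap in these sequences. The MMP8 window is chr11:102724955-102725204, minus strand, that of MMP10 is chr11:102780629-102780878, minus strand, and that of MMP14 is chr14:22836335-22836584, plus strand.
MMP8: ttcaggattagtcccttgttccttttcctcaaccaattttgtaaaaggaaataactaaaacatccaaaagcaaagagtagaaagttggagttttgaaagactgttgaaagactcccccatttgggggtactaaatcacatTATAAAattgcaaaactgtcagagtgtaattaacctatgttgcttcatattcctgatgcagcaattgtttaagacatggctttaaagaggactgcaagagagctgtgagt
MMP10: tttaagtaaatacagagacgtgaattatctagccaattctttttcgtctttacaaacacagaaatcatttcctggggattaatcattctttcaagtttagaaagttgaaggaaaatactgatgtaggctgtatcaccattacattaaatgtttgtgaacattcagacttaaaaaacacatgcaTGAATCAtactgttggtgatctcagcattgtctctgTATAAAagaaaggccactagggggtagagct
MMP14: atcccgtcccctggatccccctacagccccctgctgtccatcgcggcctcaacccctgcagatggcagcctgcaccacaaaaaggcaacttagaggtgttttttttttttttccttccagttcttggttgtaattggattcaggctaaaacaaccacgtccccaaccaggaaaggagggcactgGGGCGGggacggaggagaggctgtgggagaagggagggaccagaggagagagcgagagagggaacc
MMP10 had a TATA box beginning 31 bases and an AP-1 site beginning 67 bases before the start site, and MMP7 had the same motifs at 30 and 67 bases. The MMP8 window held a TATA box at 110 bases and neither other motif. MMP14 held 1 GC box, at 66 bases. Of all 35116 promoter windows of this length, 10.7% held the TATA box, 6.57% the AP-1 site and 42.6% the GC box. Among the 22 matched members, which had 24 windows, the counts were 5, 2 and 17 genes. A gene was counted if any of its windows held the motif, so these counts are not shares of windows. A match is a description of the letters and not of a bound site.

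TIMP2, the inhibitor that also serves as the bridge between MMP14 and the MMP2 proenzyme, held the single call, and its probe sets disagreed. The called probe set read 6696 in the scrambled cells against 14991 and 15890 in the siRNA cells, 2.24 and 2.37 times the scrambled signal (difference 1.20 ± 0.19, SE; limma adjusted p = 0.0346). Both siRNA arrays were high in it and close to each other. The brightest TIMP2 probe set read 26299 against 22539 and 23302 (-0.20 ± 0.17, SE; limma adjusted p = 0.574). A further one read 15834 against 15829 and 15614 (-0.010 ± 0.18, SE; limma adjusted p = 0.984). The ratio of the called to the brightest probe set was 0.255 in the scrambled cells and 0.665 and 0.682 in the siRNA cells, so the probe sets of this gene changed unequally. Which transcripts or parts of TIMP2 each of them binds was not analysed here. The call was lost when no filter was used (limma adjusted p = 0.138), when the filter was stricter (0.0597, at the 75th percentile) and when eBayes had no trend (0.172), in a range of 0.0133 to 0.172 over 8 alternatives.

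TIMP3, the inhibitor that stays bound to the matrix and also blocks ADAM17 and some ADAMTS proteases, lay lower in all 4 of its probe sets on both siRNA arrays. They read 34008 against 14673 and 21581, 22380 against 15969 and 17540, 23090 against 10963 and 15103, and 9986 against 6231 and 7297. In each of them the scrambled array was the highest and siRNA array 1 the lowest. The differences were -0.93 ± 0.25, -0.42 ± 0.18, -0.84 ± 0.23 and -0.56 ± 0.21 (SE). As deposited, limma adjusted p was 0.100, 0.257, 0.109 and 0.202, so none was called, while 3 had an unadjusted p below 0.05. With arrays centred on their medians the 2 with the largest differences were called (limma adjusted p = 0.00303 and 0.0102), with ranges over 8 alternatives of 0.00303 to 0.270 and 0.0102 to 0.275. Centring also raised the share of all probe sets called from 2.09% to 5.6%. Probe sets of 1 gene measure the same RNA and are not separate replicates.

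**Figure D3:**
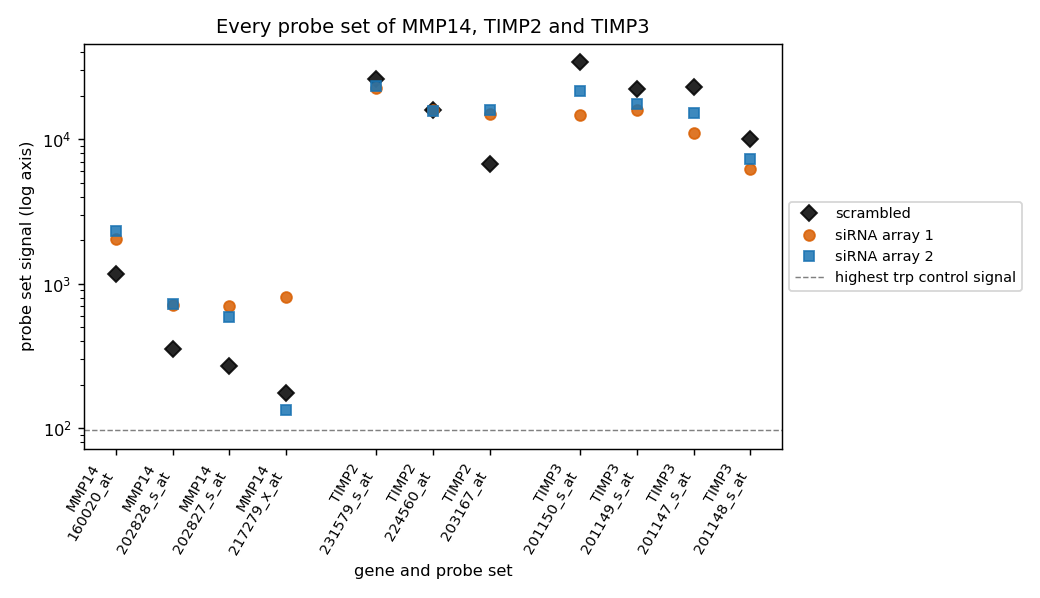
Signals (y axis, log scale) of every probe set of MMP14, TIMP2 and TIMP3 on the scrambled array (black diamonds), siRNA array 1 (orange circles) and siRNA array 2 (blue squares), with the highest trp control signal (97.2) as a dashed line. All 4 TIMP3 probe sets have the black diamond on top, whereas TIMP2 has it at the bottom in the rightmost of its 3 probe sets and level with or above the siRNA arrays in the other two.

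The TIMP3 promoter window (chr22:32801455-32801704, plus strand) is shown as the inhibitor with all probe sets lower. It held 5 GC boxes in capitals (GGGCGG on either strand) and neither the TATA box nor the AP-1 site.
TIMP3: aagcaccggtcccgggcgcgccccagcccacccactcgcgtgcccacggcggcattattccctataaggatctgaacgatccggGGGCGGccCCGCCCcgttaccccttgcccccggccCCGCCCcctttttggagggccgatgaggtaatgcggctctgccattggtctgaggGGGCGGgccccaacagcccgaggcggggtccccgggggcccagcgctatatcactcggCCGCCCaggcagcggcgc
By their brightest probe sets, the other regulators past the filter differed less from scrambled than TIMP3 did. TIMP1, a secreted inhibitor of most MMPs, read 32450 against 33949 and 31046, and the siRNA arrays lay on either side of scrambled (difference 0.00070 ± 0.17, SE; limma adjusted p = 0.999). RECK, a membrane-anchored inhibitor of MMPs, had a brightest probe set at 1218 against 1255 and 1384 (0.11 ± 0.26, SE; adjusted p = 0.865 by limma). Of its 3 other probe sets past the filter, 1 was split, at 868.1 against 734.5 and 1070. A dim one, of the _x_at type like the brightest RECK probe set, read 253.2 against 341.8 and 566.5 (limma adjusted p = 0.383). The remaining one read 334.3 against 334.5 and 598.5. BSG, or basigin, a surface glycoprotein known to induce MMP production in neighbouring cells, read 6107 against 11497 and 6736, so that siRNA array 1 stood apart from the other 2 arrays (0.52 ± 0.32, SE; limma adjusted p = 0.406).

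None of the 16 ADAM probe sets past the filter was called by limma, and 0 had an unadjusted p below 0.05. ADAM10, the main shedding enzyme of cadherins and Notch receptors, had a brightest probe set at 13881 against 10461 and 11370 (-0.35 ± 0.19, SE; limma adjusted p = 0.367). A second ADAM10 probe set was lower as well, at 3062 against 1886 and 2496, and the remaining one, of the _x_at type, was higher at 2372 against 2766 and 2984. ADAM17, which releases tumour necrosis factor and ligands of the epidermal growth factor receptor, read 3316 against 3026 and 3121 (-0.11 ± 0.23, SE; limma adjusted p = 0.843). Its other 2 probe sets were split, with siRNA array 1 above and siRNA array 2 below scrambled. ADAM9, another membrane-bound ADAM, read 6391 against 8355 and 9194 (0.45 ± 0.20, SE; limma adjusted p = 0.272). ADAM15, which carries an integrin-binding motif, read 540.8 against 330 and 345 in one probe set and 251.1 against 555.6 and 258.8 in the other, in opposite directions. ADAM19 read 321.6 against 260.1 and 448.9, on either side of scrambled, by its brightest probe set. Its other probe set did not pass the filter and was not tested; it read 257.4 against 135.9 and 116.5, lower on both siRNA arrays and above the trp level on every array.

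ADAM23, a neuronal surface protein without protease activity, lay higher in all 4 of its probe sets on both siRNA arrays. They read 2054 against 2708 and 4461, 995.2 against 1063 and 1698, 618.5 against 793.8 and 1183, and 202.5 against 336.5 and 317.5. In the first 3 siRNA array 2 was the highest. The brightest differed by 0.75 ± 0.32 (SE; limma adjusted p = 0.253), and the others by 0.42 to 0.61. The ADAM23 promoter window (chr2:206443282-206443531, plus strand), shown as the ADAM with all probe sets on one side, held 2 GC boxes (capitals) and neither other motif.
ADAM23: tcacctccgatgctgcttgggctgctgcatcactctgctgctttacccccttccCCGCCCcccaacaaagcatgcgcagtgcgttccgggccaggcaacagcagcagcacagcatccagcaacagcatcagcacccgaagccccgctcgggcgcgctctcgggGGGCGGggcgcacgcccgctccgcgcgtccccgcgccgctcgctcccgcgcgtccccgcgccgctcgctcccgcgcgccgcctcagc

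Among ADAMTS proteases, 0 of 6 probe sets past the filter were called by limma and 0 had an unadjusted p below 0.05. ADAMTS1, which cuts the proteoglycans aggrecan and versican, read 755.1 against 446 and 535.5 (-0.58 ± 0.31, SE; limma adjusted p = 0.355). A dim ADAMTS1 probe set read 48.8 against 176.5 and 45.2, and the mean over both was level with scrambled (0.00020). ADAMTS9, a protease of versican and aggrecan, had a brightest probe set at 297.5 against 367.5 and 946.7, with siRNA array 2 far above the others (0.90 ± 0.51, SE; limma adjusted p = 0.381). Its other 2 probe sets past the filter were lowest on siRNA array 1 and highest on siRNA array 2, at 290.4 against 151.4 and 396.5 and at 190.5 against 120.8 and 320.7. ADAMTS4, an aggrecanase, read 219 against 214.6 and 388.7 (limma adjusted p = 0.730). ADAMTS10, linked to fibrillin microfibrils, read 450 against 590.9 and 56.5 in an _x_at probe set, the widest gap between the siRNA arrays among the 25 members (2.62 on the log2 scale), and its other probe set read at most 22.1.

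The 10 members without a probe set past the filter were MMP7, MMP10, MMP15, MMP24, TIMP4, ADAM8, ADAM12, ADAM22, ADAMTS5 and ADAMTS6, and they were not tested. Their highest signals ran from 72.9 (MMP15, a transmembrane MMP) to 241.8 (ADAM8, an ADAM known from leukocytes). MMP24, also transmembrane, read 168.6 against 126.8 and 190.9, above the trp level on every array. TIMP4, the fourth inhibitor, read 20.7 against 30 and 103. ADAM8 was split in its brightest probe set, at 144.1 against 82 and 241.8. A dimmer ADAM8 probe set read 220.2 against 30.3 and 45.5, at least 2.27-fold lower with signals raised to 97.2. The 5 probe sets of ADAM12 read at most 138.7, and the 8 of ADAM22, a relative of ADAM23 that also lacks protease activity, at most 145.9. ADAMTS5, an aggrecanase, read at most 167.3 in 4 probe sets, and ADAMTS6 at most 125.2 in 3. In all, 18 of the 93 member probe sets stayed at or below 97.2 on all arrays.

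The siRNA arrays differed from each other in many members. Of the 25 members, 21 (84%) were higher on siRNA array 2 than on siRNA array 1, including 9 of 10 MMPs, against 55.8% of all genes. The median gap between the siRNA arrays was 0.56 over the members and 0.23 over all genes. Among members with a mean log2 value under 10 (12 genes) it was 0.67, against 0.32 for all such genes, and among the 13 brighter members it was 0.18, against 0.19. MMP1, MMP8, MMP19, ADAMTS9 and ADAMTS10 had gaps above 1 on the log2 scale. In MMP19 and ADAMTS10 the lower of the siRNA signals lay below the trp level. No test of this difference can be made with 1 array on each side.

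**Figure D4:**
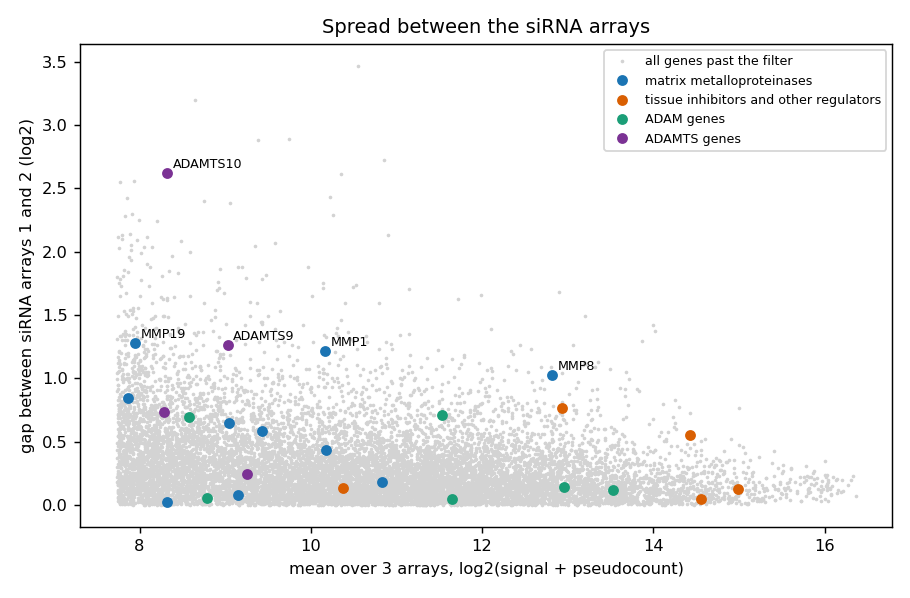
Absolute difference between siRNA arrays 1 and 2 (y axis, log2) against the mean over the 3 arrays (x axis, log2(signal + pseudocount)) for all 12386 genes (grey) and the 25 members (coloured by class). The 5 labelled members carry a gene name because their gap exceeds 1, among them MMP8 at a mean of 12.8.

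Probe sets of a member gene often disagreed, and matching counts over all genes were not computed. Of 13 members with at least 2 probe sets past the filter, MMP16, TIMP3 and ADAM23 (3) had all of them on one side of scrambled on both siRNA arrays. In TIMP2, ADAM10 and ADAM15 (3) some probe sets were higher and others lower on both arrays, and in the other 7 at least 1 probe set was split.

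Related genes were counted from lists of the protease system. Of 45 other MMP, ADAM, ADAMTS and astacin genes, 40 were on the array by name and 10 passed the filter. Limma called 0 of those 10, where 2.64% of all genes were called. An unadjusted limma p below 0.05 was reached by 2 of the 10, against 20.2% of all probe sets, so this count is near the background. BMP1, the procollagen C-proteinase, read 406.8 against 885.2 and 946.9 (1.08 ± 0.29, SE; limma adjusted p = 0.102). ADAMTS17 read 2101 against 789.8 and 1071 (-1.15 ± 0.29, SE; limma adjusted p = 0.0919). Among 18 measured activators and partners of the metalloproteinases, 1 rose and 1 fell by their brightest probe sets, where 2.64% of all genes were called. PCSK7, a proprotein convertase of the furin family, rose from 106.7 to 575.5 and 665.9 (2.11 ± 0.35, SE; limma adjusted p = 0.0381). Its scrambled signal lay below the filter level of 166, so that it passed the filter through the siRNA arrays, where it was high. TFPI2, a Kunitz-type inhibitor in the matrix, fell from 28363 to 3356 and 1446 (limma adjusted p = 0.0198). ITGB3, the integrin subunit that can hold MMP2 at the surface, rose in 2 dimmer probe sets (limma adjusted p = 0.0482 and 0.0290) but differed by 0.33 in its brightest (0.084 and 0.57 on the 2 arrays). The second of these dimmer probe sets read 80.8 against 645.6 and 594, with a scrambled signal below both the filter level and the trp level, and it too passed the filter through the siRNA arrays. FURIN, which activates MMP14 and the ADAM proenzymes, read 827.5 against 1031 and 1034 (0.30 ± 0.27, SE). Over these 18 genes the median difference was 0.30.

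Of 20 measured substrates shed by ADAM10 or ADAM17, 1 rose and 1 fell, where 2.64% of all genes were called, and the median difference was -0.029. The neural adhesion gene L1CAM rose from 1388 to 5225 and 7950 in its brightest probe set (limma adjusted p = 0.0255). A dimmer L1CAM probe set read 241 against 328.5 and 267.7 and was not called (limma adjusted p = 0.770). ALCAM, another adhesion molecule, fell from 9368 to 2735 and 2504 (limma adjusted p = 0.0205). HBEGF, a growth factor released by shedding, read 2764 against 1205 and 1140 (-1.21 ± 0.25, SE; limma adjusted p = 0.0624). MERTK, a receptor kinase that is shed, read 889.8 against 1808 and 1850 (limma adjusted p = 0.0917).

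Of the 9 measured melanocyte markers, 0 stayed at or below the trp level on all arrays, with PMEL at 63858, 60940 and 65576 and SOX10 at 15136, 13842 and 17248. They were not all level between the groups: by their brightest probe sets 1 rose and 1 fell, where 2.64% of all genes were called. TYRP1, an enzyme of melanin synthesis, fell from 53204 to 5022 and 12370 (limma adjusted p = 0.0374), and TRPM1, a melanocyte ion channel, rose from 1053 to 4968 and 3933 (limma adjusted p = 0.0228). TYR, or tyrosinase, rose in 1 dimmer probe set (limma adjusted p = 0.0383), and its brightest read 19988 against 35193 and 37555 (limma adjusted p = 0.0529). PAX3, a transcription factor of the lineage, read 10866 against 6872 and 6204 (limma adjusted p = 0.112). Since MMP2, MMP14 and TIMP genes are also active in fibroblasts, their markers were read beside them. The summed signal of 10 fibroblast markers was 2330 in the scrambled cells and 6043 and 6483 in the siRNA cells. Of these sums the proteoglycan gene LUM, which was called (limma adjusted p = 0.0072), made up 598.6, 4850 and 4841. COL3A1, POSTN and PDGFRB stayed at or below the trp level on all arrays (3 of 10), and COL1A2 read 136.2 against 119.8 and 86.2. COL1A1 read 671.9 against 487.9 and 565.1. MMP8 and ADAM8 are also known from leukocytes, whose 7 measured markers summed to 1945 against 1080 and 1125. Of these sums LCP1 made up 1130, 477.8 and 384.7. PTPRC, at 94.7, 24.2 and 47.2, stayed below the trp level on all arrays, and CD14 read at most 15. CD3E and ITGAM were lower on both siRNA arrays, and CSF1R and LYZ on siRNA array 1 only. Epithelial markers (9) summed to 16534 against 8508 and 7486. Of these sums ESRP1, which was called (limma adjusted p = 0.0282), made up 14486, 5567 and 4656. KRT8 was also lower on both siRNA arrays, while KRT18 was higher, at 1308 against 2483 and 2149. Endothelial markers (7) summed to 1059 against 1213 and 1629. There ENG and PECAM1 were higher on both siRNA arrays, while VWF was lower, at 207 against 50.2 and 72.4. The part of these markers in the results was not tested. In RNA from a bulk culture, fewer cells expressing a gene and less RNA per cell cannot be told apart.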

How the data were processed

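Total RNA of SK-Mel-28 cells, labelled with biotin, was hybridised to 3 arrays of 1 colour, 1 scrambled and 2 siRNA. Per the submitters' processing notes, the deposited intensity values came from GCOS 1.3. Their mean after trimming 2% at each end was 1000.14, 1000.12 and 1000.13, which shows scaling to a shared mean before deposit; further settings are not given in the sources. There were 0 value columns of other samples. The number of arrays limits the precision of every value.

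The 62 control probe sets were left out. Values were analysed as log2(signal + 47.4), the pseudocount being the 25th percentile of all signals, and probe sets with a mean above the median (7.74) were kept. Differences between siRNA and scrambled were tested in R 4.3.3 with limma 3.58.1 (eBayes with a trend after lmFit), two-sided, with Benjamini-Hochberg adjustment over 27306 probe sets at 0.05. The fit has 1 residual degree of freedom, to which moderation added 6.36, and assumes that the lone scrambled array varies like the siRNA arrays. The fit was tested on simulated data. Each gene was read from its brightest probe set by mean log2 value. Symbols came from the platform annotation, and 0 changed when matched to the current RefSeq table.

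Every member is accounted for. A member past the filter was described by its brightest probe set. Others of its probe sets were given where they differed in sign or by over 1 on the log2 scale. Genes of related lists were named where called. BMP1, ADAMTS17, FURIN, HBEGF and MERTK were added after their values were seen, as were further probe sets of MMP14, TIMP3, RECK and ADAM23. Members and lists were chosen with earlier results of these data known. The alternatives were other pseudocounts (16 and 200), no filter or the 75th percentile, centred or quantile-normalized arrays, no trend, robust moderation, each siRNA array left out, the mean over a gene's probe sets and, for the 2-fold counts and added after seeing the data, signals without a pseudocount.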

Additional observations from a re-analysis of the deposited data

Results flagged for a closer look

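Control probe sets for ribosomal RNA entered none of the comparisons. On siRNA array 1 their median ratio to the control array was 3.76, and on siRNA array 2 it was 1.06 (6 probe sets), so that siRNA array 1 stood above the control level.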

How the results depend on the processing

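Of 52 member probe sets, 1 was called as deposited, 0 without a filter (11 of 93 at an unadjusted p below 0.05), 0 with the filter at the 75th percentile (5 of 25), 0 without the trend (8 of 52) and 3 with arrays centred; the calls over all probe sets were 1, 9, 1 and 1528 under these settings, against 571. The called TIMP2 probe set kept its difference of 1.20 but not its call without a filter, with the stricter filter and without the trend (limma adjusted p = 0.138, 0.0597 and 0.172). Leaving out 1 siRNA array gave it 1.16 to 1.24, with no test. On the log2(signal + 47.4) scale, the count of members at least 2-fold higher on the arrays used was 0 with both arrays and 0 to 4 with 1 left out. The count lower was 0 and 1 to 2, and the shares of all genes with 1 array left out were not computed. Without the pseudocount, an alternative chosen after seeing the data, 1 (MMP2) was higher and 0 lower. Centring moved the median of all genes from 0.097 to -0.073. It turned TIMP1 to -0.17, RECK to -0.060 and ADAM19 to -0.087. Quantile normalization turned RECK to -0.012 and ADAM19 to -0.10. Averaging a gene's probe sets turned TIMP2 to 0.33, ADAM19 to -0.37 and ADAMTS1 to 0.00020. Centring shifts all values of an array by the same amount, so only small positive differences turned. The mean for TIMP2 includes its called probe set, at 1.20. Why quantile normalization turned RECK and ADAM19 was not tested. Of 207 values of single members under the alternatives other than leaving out an array, 8 changed sign and 1 became called (TIMP3 with arrays centred, -1.10). Of 50 values with 1 siRNA array left out, 6 changed sign: TIMP1 without array 1, and MMP8, MMP11, ADAM19, ADAMTS4 and ADAMTS10 without array 2. No paired analysis was possible because the scrambled array carries no replicate number. Signals near or below 97.2 limit what the dim members can show.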
